A study of Mus musculus with 30 samples.

Results

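The comparison asks which transcripts respond to the R191H mutation on a control diet and no longer do so on a diet with 2BAct, once any change that the diet makes in wild-type (WT) mice has been taken away. It rests on 12 of the 30 cerebellum libraries of the series, 3 from each combination of genotype and diet: R191H mice on placebo and on 2BAct (R191H + placebo, R191H + 2BAct) and WT mice on the same diets (WT + placebo, WT + 2BAct). All 12 came from female mice, which the labels give as 2 months old after 1 month on the diet, whereas the study's text gives a slightly older age. R191H mice were homozygous for a knock-in that replaces an arginine of eIF2Bε, the product of Eif2b5, on a C57BL/6J background, and WT mice were their littermates. The mutant allele also carries loxP sites around several of its exons, which the WT allele lacks, and it is present in every cell of the animal. The 2BAct diet held 300 µg of 2BAct, a small molecule that activates eIF2B, per g of meal, and the placebo diet, called vehicle in the labels, was the same meal without it. The interaction of a gene is its log2 R191H effect (R191H minus WT) on 2BAct minus its log2 R191H effect on placebo. It is below 0 for a transcript that is raised by the mutation on placebo and less so on 2BAct, and above 0 for one that is lowered on placebo and less so on 2BAct. The members of the comparison are therefore libraries, and the genes described below were found by testing 10200 of the 10512 genes listed.

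eIF2B is the exchange factor that reloads eIF2 with GTP, so that eIF2 can bring the initiator tRNA to the ribosome. When eIF2 is phosphorylated it blocks eIF2B, bulk translation falls, and a few mRNAs, that of the transcription factor ATF4 among them, are translated more. This is the integrated stress response (ISR). ATF4 and its partners of the C/EBP family then raise genes for amino acid uptake and synthesis, tRNA charging and redox balance. Mutations that weaken eIF2B cause vanishing white matter disease, in which astrocytes and oligodendrocytes are affected and myelin is lost.

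A DNA element to which ATF4 binds with C/EBP partners has the core TGATGNAA, where N is any base. It was searched on both strands of the RefSeq promoters (GRCm38.p6), which run from 250 bases before to 50 bases after the start of a gene. Of the 9 genes described next, whose interaction was below 0, 7 had an entry, and 3 of these held the core: Slc7a11, Nupr1 and Trib3. Slc7a5, Ccnd2 and A2m had no entry. None of the 6 entries for genes with an interaction above 0 held it. It was present in 172 of 7041 entries for all genes tested (2.44%). A match is a run of letters and not a measured binding site, and windows without one may hold other forms of the element. The 250 bases before the start of Slc7a11, which shows the core most often, are at chr3:50443614-50443863 on the minus strand, and are followed by shorter windows around the match in Nupr1 (chr7:126625565-126625588, minus strand) and in Trib3 (chr2:152344031-152344054, minus strand), with the core in capitals on either strand.
Slc7a11: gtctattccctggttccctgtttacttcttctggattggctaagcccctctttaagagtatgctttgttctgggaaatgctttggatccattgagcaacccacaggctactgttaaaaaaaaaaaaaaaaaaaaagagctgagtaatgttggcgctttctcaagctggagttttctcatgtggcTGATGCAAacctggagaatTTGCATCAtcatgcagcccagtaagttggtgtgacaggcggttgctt
Nupr1: gggccagaTTGCATCAgacagggc
Trib3: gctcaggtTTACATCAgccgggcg
In Slc7a11 the core had 2 matches on opposite strands, centred 62 and 43 bases before the start. In Nupr1 it was centred 106 bases before the start, and in Trib3 18 bases after it.

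Each library was described by its unique reads, the reads that the authors' software assigned to a single gene, which numbered between 12873718 and 18619411. Levels are given as CPM, a library's count for the gene scaled by its read total and a TMM factor and not by gene length, and replicates are separate mice. One library stood apart. In R191H + placebo replicate 1 the ribosomal RNA Rn18s-rs5 took 8.25% of the unique reads, against 0.128% to 0.415% in the other libraries. This library also lay farthest out on the first and second principal components, which held 14.7% and 11.0% of the variance, and had the lowest shares of mt-Rnr2 (17.0%) and of mitochondrial coding reads (2.11%). Eif2b5, the mutated gene, had 64.3 ± 4.9 CPM in WT + placebo, 64.9 ± 0.87 in WT + 2BAct, 64.8 ± 2.7 in R191H + placebo and 69.1 ± 3.6 in R191H + 2BAct (SD, n = 3 each), and its interaction of 0.08 did not pass the test (adjusted p = 0.963, edgeR's quasi-likelihood test). The counts carry no sequence, so the mutation itself was not checked in them. Markers of the cerebellar label were present, with summed levels of 3064 to 3715 CPM for granule cells and 3726 to 4449 CPM for Purkinje cells over the 12 libraries. In bulk tissue, fewer cells of a type and less RNA per cell cannot be told apart.

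The interaction passed an adjusted p of 0.05 for 16 genes, 9 below 0 (0.0882% of the genes tested) and 7 above 0 (0.0686%), and with library totals in place of TMM for 18, 12 below 0 and 6 above. The 9 were genes of the ISR and amino acid uptake together with a cyclin and a receptor component, and all were raised by R191H on placebo. All 7 were lowered by R191H on placebo, and 2 of them, A2m and Fabp7, are on the list of astrocyte and Bergmann glia markers, whose members went both ways. In both sets the R191H + 2BAct libraries lay near those of WT mice. The components of the interaction came from the same fit. On placebo 57 genes differed between the genotypes (0.559%). On 2BAct none did (0%), with 515 at an unadjusted p under 0.05 in edgeR, 0 calls by limma-voom and 1 by DESeq2, but 1371 by limma on the deposited ln TPM. The diet changed 58 genes in R191H mice (0.569%). It changed none in WT mice (0%), with 388 at an unadjusted p under 0.05 in edgeR, 0 calls by limma-voom, 1 by DESeq2 and 420 on ln TPM. On ln TPM the placebo count was 2562 and the median of all genes moved by -0.49 for R191H on placebo, -0.39 for R191H on 2BAct and 0.19 for the diet in WT. Between 125 and 3412 genes per group were held at a constant low value there. Both nonzero counts also depended on single libraries and on the filter. The 57 became 36 without WT + placebo replicate 2, 37 without R191H + placebo replicate 3 and 28 with a floor of 1 TPM. The 58 became 32 without R191H + placebo replicate 3, 37 without R191H + 2BAct replicate 2 and 30 with that floor. These counts share libraries and are not independent of the interaction. An interaction is a difference of 2 differences, and its median standard error over all genes was 0.17 on the log2 scale, against 0.12 for the R191H effect on placebo.

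**Figure D1:**
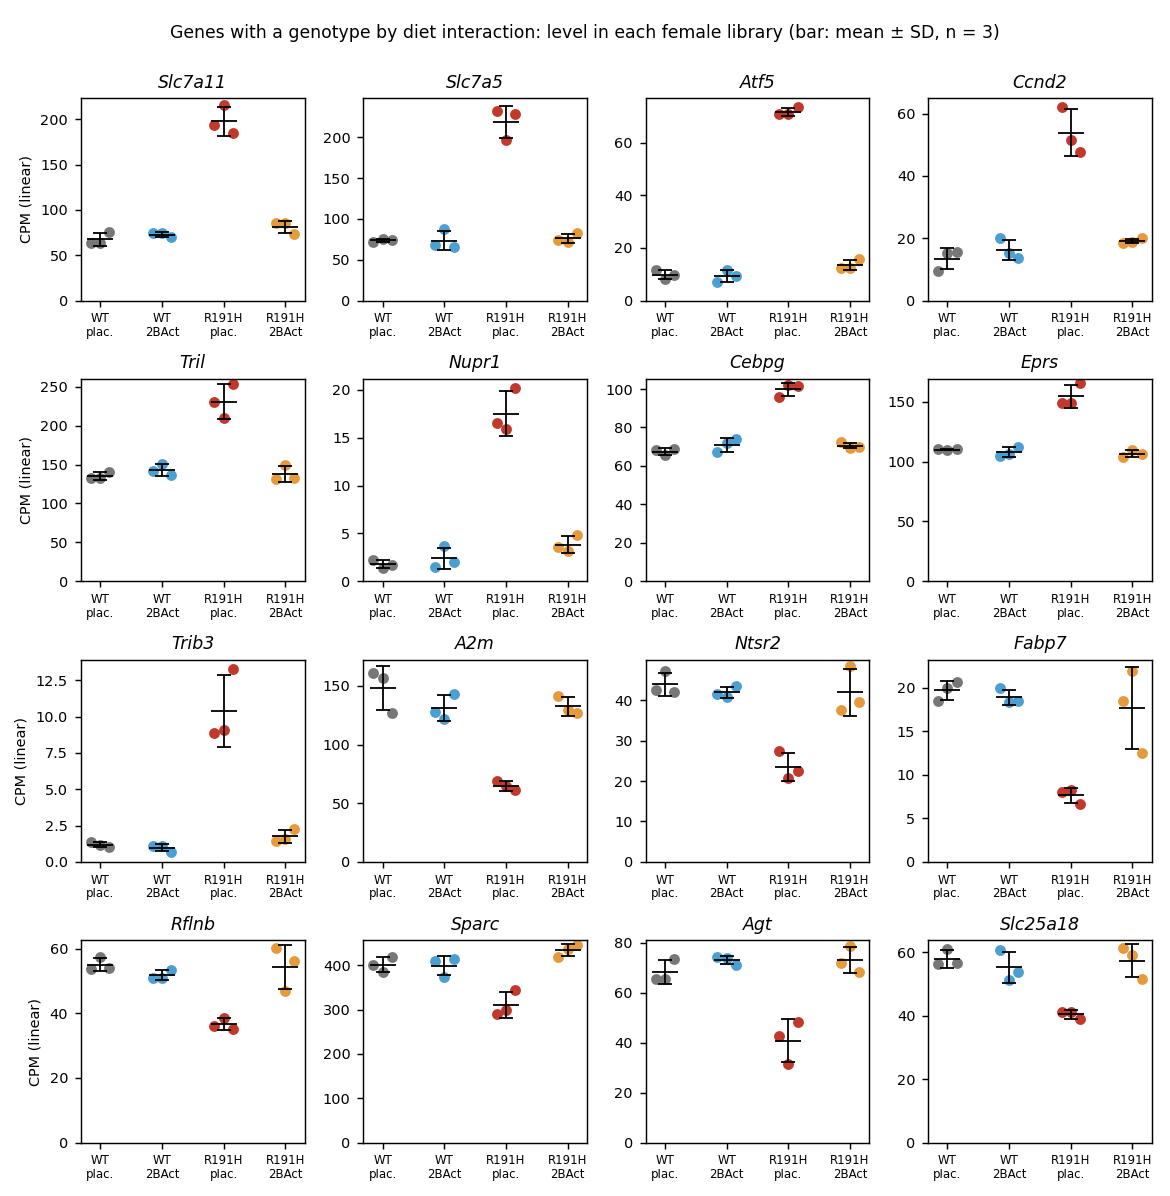
Level in CPM (linear axes from 0) of each of the 16 genes with an interaction, in each of the 12 female libraries by group, with points for libraries and bars for mean ± SD (n = 3). The R191H + placebo libraries lie above all others in the first 9 panels and below all others in the last 7, as for Atf5 at 70.7 to 73.4 CPM.

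Nupr1 and Atf5, both on the list of ISR transcription factors, had the interactions farthest from 0 among the 16 genes. Atf5, a factor of the ATF4 family whose mRNA is itself under translational control, is on chromosome 7 from 44812256 to 44816658 (GRCm38, GENCODE). It had 70.7, 70.8 and 73.4 CPM in the R191H + placebo libraries and 12.3, 12.5 and 15.7 in R191H + 2BAct. The WT libraries had 11.7, 8.26 and 9.65 CPM on placebo and 7.06, 11.5 and 9.22 on 2BAct. The R191H + placebo libraries were thus far above the rest, and those of R191H + 2BAct lay above every WT library by a small margin. The R191H effect was 2.87 on placebo and 0.53 on 2BAct, an interaction of -2.34 (standard error 0.21, adjusted p = 3.25e-07, edgeR's quasi-likelihood test).

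Nupr1, a small chromatin-associated stress protein induced through ATF4, had 16.5, 15.9 and 20.2 CPM in R191H + placebo, and 3.54, 3.13 and 4.81 in R191H + 2BAct. The WT libraries held 1.42 to 2.26 CPM on placebo and 1.49 to 3.65 on 2BAct. The R191H + 2BAct libraries overlapped those of WT + 2BAct but not those of WT + placebo. The interaction of Nupr1 was -2.64 (standard error 0.38, adjusted p = 0.000732 in edgeR), and -1.68 on the deposited ln TPM, where it passed in limma. Cebpg, a C/EBP protein that pairs with ATF4, changed less but with little spread between mice. It had 96.1, 102 and 102 CPM in R191H + placebo, while the other 9 libraries spanned 65.4 to 74.1. Its R191H effect went from 0.57 on placebo to -0.01 on 2BAct (interaction -0.58, standard error 0.10, adjusted p = 0.00492 in edgeR).

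Atf4 encodes the central factor itself, and its mRNA had a smaller interaction than the 9 genes. It had 138, 133 and 144 CPM in R191H + placebo and 115 to 120 in R191H + 2BAct, against 98.6 to 119 in the 6 WT libraries. Its R191H effect was 0.33 on placebo and 0.12 on 2BAct, and the interaction of -0.22 did not pass (95% interval -0.43 to -0.00, adjusted p = 0.836 in edgeR). Ddit3, which encodes the stress factor CHOP, lay just outside the threshold. It had 18.9, 17.4 and 17.8 CPM in R191H + placebo, 7.17 to 9.58 in R191H + 2BAct and 5.92 to 10.4 in WT, with an interaction of -1.20 (standard error 0.26, adjusted p = 0.0678 in edgeR). Of the 5 ISR transcription factors tested, 3 passed, where 0.0882% of all genes passed below 0. All 5 had R191H + placebo above all other libraries, where 1.29% of all genes did. The list was written by hand with earlier results of these data known.

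Trib3, a pseudokinase that feeds back on the ISR, had the lowest counts of the 16 genes, with 108, 150 and 200 unique reads in R191H + placebo, 26, 28 and 32 in R191H + 2BAct and 10 to 20 in WT. In CPM these were 8.87, 9.07 and 13.3, then 1.42, 1.59 and 2.23, against 0.693 to 1.37 in WT. Its interaction was -2.31 (standard error 0.44, adjusted p = 0.0260 in edgeR). With halved counts, and in limma-voom, Trib3 did not pass. Ppp1r15a, which encodes the phosphatase subunit GADD34 that reverses eIF2 phosphorylation, had an interaction of -0.18 (95% interval -1.30 to 0.93) at a mean of 1.24 to 1.39 CPM per group, so that a change of the size seen for Cebpg could not be detected for it. Of the 15 transcripts in the study's targeted ISR panel, 8 are listed and 7 were tested. Eif4ebp1 is listed but had 0 unique reads in the 12 libraries and was not tested. In the study's targeted assay it was among the most upregulated of the panel, with Atf5 and Trib3. Atf3, Chac1 and Sesn2 are among the transcripts not listed. Of the 7 tested, 3 passed with an interaction below 0 and 0 above it. The median of the 7 was -1.20, beside -0.01 for all genes, of which 0.0882% passed below 0. The study chose the panel for the ISR, and its counts overlap those of the other ISR lists.

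Transporters of amino acids gave the smallest p-values. Slc7a11, the cystine and glutamate exchanger xCT that feeds glutathione synthesis, is on chromosome 3 from 49892526 to 50443614. It had 194, 215 and 184 CPM in R191H + placebo and 85.0, 85.3 and 73.7 in R191H + 2BAct, while WT libraries held 63.3 to 75.5 on placebo and 69.7 to 74.6 on 2BAct. Its R191H effect was 2.93-fold on placebo and 1.12-fold on 2BAct, an interaction of -1.39 on the log2 scale (standard error 0.12, adjusted p = 3.25e-07 in edgeR). This is the gene shown above with a paired core in its promoter.

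Slc7a5, the large neutral amino acid transporter LAT1, had 232, 196 and 229 CPM in R191H + placebo. The other 9 libraries spanned 65.6 to 87.6 CPM with no order between their groups. Its R191H effect was 1.57 on placebo and 0.05 on 2BAct (interaction -1.52, standard error 0.13, adjusted p = 3.25e-07 in edgeR). Slc3a2, the heavy chain with which both transporters pair, followed the same course at a lower count: 11.7, 12.7 and 16.1 CPM in R191H + placebo, 5.45 to 7.39 in R191H + 2BAct and 3.92 to 6.65 in WT. Its interaction of -1.23 had a larger error (standard error 0.28) and did not pass (adjusted p = 0.112 in edgeR). Of the 7 amino acid transporters tested, 2 passed, where 0.0882% of all genes passed below 0, and the median interaction was -0.26. The other 4, Slc7a1, Slc38a2, Slc6a9 and Slc38a1, had interactions between -0.26 and 0.10, and the median was -0.41 without R191H + placebo replicate 1 and -0.17 without R191H + 2BAct replicate 2.

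Among the enzymes that charge tRNA, Eprs passed. It encodes the synthetase for glutamate and proline and had 149, 149 and 166 CPM in R191H + placebo, against 104 to 112 in the other 9 libraries. Its interaction was -0.51 (standard error 0.09, adjusted p = 0.0100 in edgeR). Lars, the leucine enzyme, had 102 to 107 CPM in R191H + placebo and 72.0 to 84.7 elsewhere, with an interaction of -0.39 that did not pass (adjusted p = 0.251 in edgeR). Of 20 cytosolic tRNA synthetases tested, 1 passed, 14 were below 0 and the median was -0.07, close to that of all genes. With an unadjusted p under 0.05 in edgeR, 3 were below 0 and 0 above it, where 2.84% of all genes were below 0. R191H + placebo lay above all other libraries for 4 of the 20, where 1.29% of all genes did. Their summed level was 1098 to 1125 CPM in R191H + placebo and 947 to 1021 in the other 9 libraries, without overlap. The 20 genes for amino acid metabolism and tRNA charging that the study chose on male libraries were all tested. Of them 1 passed, 17 were below 0 and their median was -0.29. Beside both lists, 0.0882% of all genes passed below 0 and 51.3% were below 0.

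Of 10 serine, glycine and one-carbon enzymes tested, 0 passed, 6 were below 0 and the median was -0.09. Of all genes tested 51.3% were below 0. Shmt2, the mitochondrial serine hydroxymethyltransferase, had an interaction of -0.43 (adjusted p = 0.613 in edgeR) with an R191H effect of 0.44 on placebo and 0.02 on 2BAct. Of 11 other amino acid enzymes tested, 0 passed, 8 were below 0 and the median was -0.19. Among these, Pck2, the mitochondrial phosphoenolpyruvate carboxykinase, had an interaction of -0.48 (adjusted p = 0.389 in edgeR). Asns, asparagine synthetase, had -0.49 (adjusted p = 0.836 in edgeR) at 10.3 to 10.9 CPM in R191H + placebo and 6.57 to 10.2 elsewhere.

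Phgdh, which commits glucose carbon to serine, differed from the transporters in how the groups were placed. It had 79.5, 80.4 and 86.6 CPM in R191H + placebo, and 43.1, 51.0 and 52.2 in R191H + 2BAct. The WT libraries held 51.6, 51.9 and 52.7 on placebo but 44.9, 41.3 and 34.1 on 2BAct. The WT libraries on 2BAct thus lay below those on placebo, a log2 difference of -0.38 that did not pass (unadjusted 95% interval -0.57 to -0.18, adjusted p = 0.999 in edgeR). Its large fall with 2BAct in R191H mice, -0.76, was reduced to an interaction of -0.38 (95% interval -0.65 to -0.11, adjusted p = 0.681). In R191H mice alone the diet difference of Phgdh had an adjusted p of 2.93e-05 in edgeR. Its standard error was 0.09, against 0.13 for the interaction. The interaction subtracts the WT difference, although that difference did not pass as an effect of the diet.

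The remaining 2 of the 9 genes stand outside amino acid metabolism. Ccnd2, cyclin D2, had 62.3, 51.6 and 47.8 CPM in R191H + placebo, 18.6 to 19.9 in R191H + 2BAct and 9.44 to 19.9 in WT, an interaction of -1.76 (standard error 0.22, adjusted p = 8.01e-05 in edgeR). On the deposited ln TPM the interaction of Ccnd2 was -0.52 and did not pass (adjusted p = 0.113 in limma). Tril, a leucine-rich repeat protein that works with Toll-like receptor 4, had 230, 210 and 254 CPM in R191H + placebo against 132 to 151 in the other 9 libraries. Its interaction was -0.82 (standard error 0.10, adjusted p = 0.000114 in edgeR).

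The 7 genes with an interaction above 0 were lower in R191H on placebo. A2m, the broad protease inhibitor alpha-2-macroglobulin, is on chromosome 6 from 121635376 to 121679227. It had 69.2, 64.7 and 60.8 CPM in R191H + placebo and 142, 129 and 127 in R191H + 2BAct. The WT libraries had 161, 157 and 127 CPM on placebo and 128, 122 and 143 on 2BAct. The R191H + placebo libraries were lowest, and the other 3 groups overlapped. Its R191H effect was -1.19 on placebo and 0.02 on 2BAct, an interaction of 1.21 (standard error 0.12, adjusted p = 2.75e-06 in edgeR).

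Fabp7, the brain fatty acid binding protein of radial and Bergmann glia, had 8.05, 8.22 and 6.64 CPM in R191H + placebo. Its R191H + 2BAct libraries ranged more widely, with 18.5, 22.0 and 12.6 CPM, against 18.3 to 20.7 in WT. The interaction of 1.28 was the largest above 0 among the 16 genes (standard error 0.22, adjusted p = 0.00578 in edgeR). Ntsr2, a neurotensin receptor found on astrocytes, had 27.4, 20.7 and 22.4 CPM in R191H + placebo and 37.7 to 48.6 in the other 9 libraries, an interaction of 0.91 (standard error 0.15, adjusted p = 0.00492 in edgeR), and 1.39 on ln TPM (adjusted p = 0.0516 in limma).

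Agt encodes angiotensinogen, which astrocytes make in the brain. It had 42.5, 31.4 and 48.4 CPM in R191H + placebo and 65.5 to 78.6 elsewhere (interaction 0.74, adjusted p = 0.0376 in edgeR). Rflnb, which encodes a filamin-binding protein, had 36.0, 38.7 and 35.2 CPM against 47.0 to 60.2 elsewhere (interaction 0.66, adjusted p = 0.0177). Slc25a18, a mitochondrial glutamate carrier, had 41.2, 41.1 and 38.9 CPM against 51.2 to 61.4 (interaction 0.58, adjusted p = 0.0465).

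Sparc, a secreted matrix protein, was the most abundant of the 16 genes by CPM, which is not scaled by gene length. It had 291, 299 and 345 CPM in R191H + placebo and 374 to 418 in WT. Its R191H + 2BAct libraries had 419, 438 and 446 CPM and so lay above all 9 other libraries, by a small margin over the highest WT library. This placement held for 1 of the 16 genes, Sparc, and for 0.441% of all genes tested. The R191H effect of Sparc on 2BAct was 0.12 (95% interval -0.02 to 0.26), and the interaction was 0.49 (adjusted p = 0.0313 in edgeR).

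The R191H + placebo libraries lay above the other 9 for all 9 genes with an interaction below 0, where 1.29% of all genes tested did, and below the other 9 for all 7 with an interaction above 0, where 0.961% did. Since the same libraries chose the genes, these placements describe them and add no support. When single libraries were left out in turn, 11 of the 16 genes passed every time: Slc7a11, Slc7a5, Atf5, Ccnd2, Tril, Nupr1, Cebpg, Eprs, A2m, Ntsr2 and Fabp7. The calls for the other 5 depended on single libraries. Rflnb lost its call in 4 of the 12 fits (without R191H + 2BAct replicate 1 or 3, WT + placebo replicate 2 or R191H + placebo replicate 3), with an adjusted p of up to 0.0735 in edgeR and an interaction of 0.58 to 0.76. Trib3 kept its call in 5 fits, those without R191H + 2BAct replicate 3, WT + placebo replicate 1, R191H + placebo replicate 1 or 2 or WT + 2BAct replicate 3, and had -2.51 to -2.09 with an adjusted p of up to 0.124 over the 12. Agt kept it in 4 fits (without R191H + 2BAct replicate 3, R191H + placebo replicate 2 or 3 or WT + 2BAct replicate 1), with 0.58 to 0.89 and an adjusted p of up to 0.161. Sparc kept it in 3 (without R191H + 2BAct replicate 1, R191H + placebo replicate 3 or WT + 2BAct replicate 1), with 0.44 to 0.57 and up to 0.119. Slc25a18 kept it in 2 (without R191H + 2BAct replicate 3 or WT + 2BAct replicate 1), with 0.53 to 0.65 and up to 0.212. Of these 5, Agt, Sparc and Slc25a18 had an adjusted p over 0.05 without R191H + placebo replicate 1, the library rich in ribosomal RNA.

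The R191H effect that remained on 2BAct was small for most of the 16 genes. Its unadjusted 95% interval held 0 for 6 of the 9 genes with an interaction below 0 and for all 7 of the others. The other 3 were Atf5 with 0.53 (0.21 to 0.84), Nupr1 with 0.65 (0.09 to 1.22) and Trib3 with 0.84 (0.15 to 1.53), which also had the 3 largest effects on placebo. For Atf5 the point estimate on 2BAct was 18.3% of the log2 effect on placebo, for Nupr1 19.9% and for Trib3 26.7%, and none of the 3 passed over all genes (adjusted p of 0.894 to 0.918 in edgeR). An interval that holds 0 does not show that the effect was gone. For Slc7a11 it ran from -0.01 to 0.33 and for Slc7a5 from -0.14 to 0.24.

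In WT mice no diet effect on these genes passed. The estimates farthest from 0 were those of Nupr1 at 0.43 (-0.19 to 1.06), Trib3 at -0.28 and Ccnd2 at 0.27, and intervals of this width do not exclude sizeable effects. The difference between 2BAct and placebo had an unadjusted interval that held 0 for all 9 genes with an interaction below 0, where the widest was that of Trib3 (-1.01 to 0.45). For those above 0 it held 0 for 6 of 7, the exception being A2m at -0.18 (-0.35 to -0.00).

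**Figure D2:**
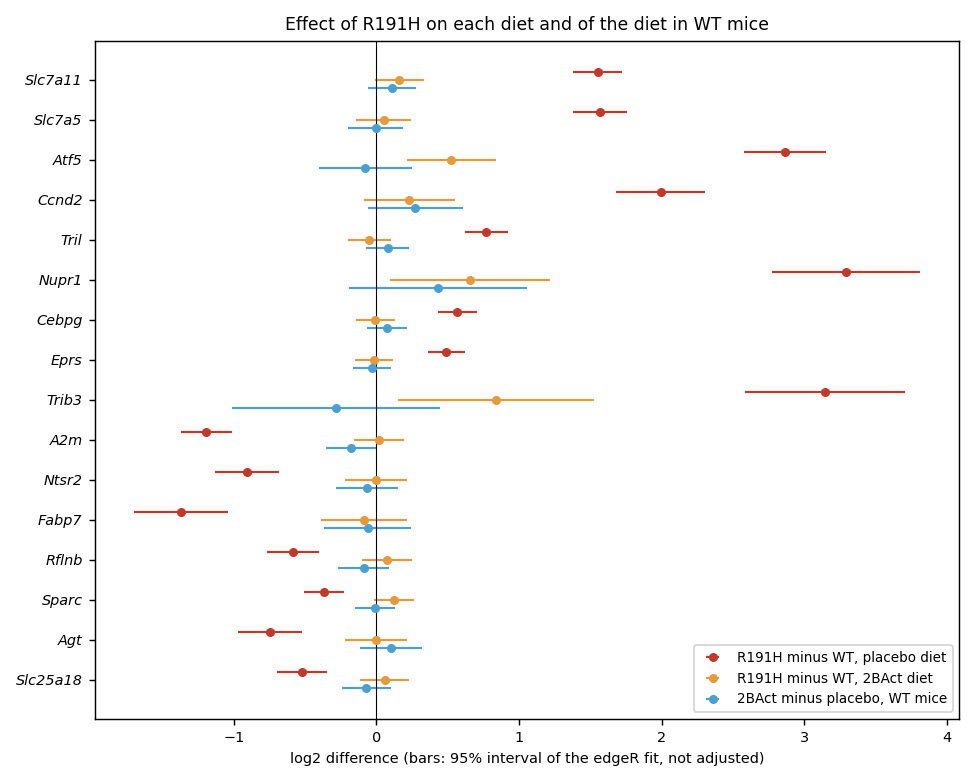
Log2 difference (x axis) of R191H minus WT on placebo, R191H minus WT on 2BAct and 2BAct minus placebo in WT mice, for the 16 genes, with unadjusted 95% intervals from the edgeR fit of 12 libraries. The placebo values lie between -1.37 (Fabp7) and 3.29 (Nupr1), while on 2BAct the intervals of Atf5, Nupr1 and Trib3 alone lie above 0.

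The genes nearest to the threshold on its outer side were Ddit3 and Luzp2 (adjusted p = 0.0678 for each), Chst2 (0.0732), Rn18s-rs5 (0.0788) and Gm22513 (0.0949), all in edgeR and below 0, and Etnppl, above 0, and Xpot, below 0, tied with Gm22513 at that adjusted p. Those nearest on the inner side were Slc25a18 (0.0465) and Agt (0.0376). Luzp2, a leucine zipper protein, had 0.53 on placebo and -0.01 on 2BAct. Chst2, a sulfotransferase, had 0.59 and 0.10. The interaction of Rn18s-rs5 was -4.54 with all libraries and -1.28 without R191H + placebo replicate 1, where its adjusted p was 0.000693. It had 2533 and 3991 CPM in the other R191H + placebo libraries, 1283 to 1605 in R191H + 2BAct and 1778 to 2416 in WT. The study depleted ribosomal RNA before sequencing, and the part of that step in this value was not tested. Gm22513, a small nuclear RNA, had a diet difference of 0.50 in WT mice (unadjusted 95% interval 0.23 to 0.76, adjusted p = 0.999 in edgeR), which enters its interaction.

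The 16 genes were then read in 18 libraries that the interaction did not use, from untreated male mice of the same line at 2, 5 and 7 months, with 3 R191H and 3 WT mice at each age. The 9 genes with an interaction below 0 were all higher in R191H males. At 2 months 9 of 9 passed, where 0.411% of all genes tested were called higher. At 5 months 8 of 9 passed (0.869% of all genes) and at 7 months 8 of 9 (0.389%), the exception at both ages being Tril, with 0.62 (adjusted p = 0.113 in edgeR) and 0.38 (adjusted p = 0.263). The median R191H effect of the 9 was 1.62, 1.96 and 1.72 at the 3 ages.

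The 7 genes with an interaction above 0 were all lower in R191H males. At 2 months 4 of 7 passed (0.0737% of all genes were called lower), at 5 months 6 of 7 (0.398%) and at 7 months 5 of 7 (0.116%), with medians of -0.53, -0.79 and -0.86. A2m, Ntsr2 and Fabp7 passed at each age. Agt had -0.53 at 2 months, where it did not pass (adjusted p = 0.0787 in edgeR), and -1.18 at 7 months, where it did (adjusted p = 0.000798). Sparc had -0.33, -0.71 and -0.83 and passed at 5 and 7 months. The males received no 2BAct, so they bear on the R191H effect alone and not on the effect of the diet.

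**Figure D3:**
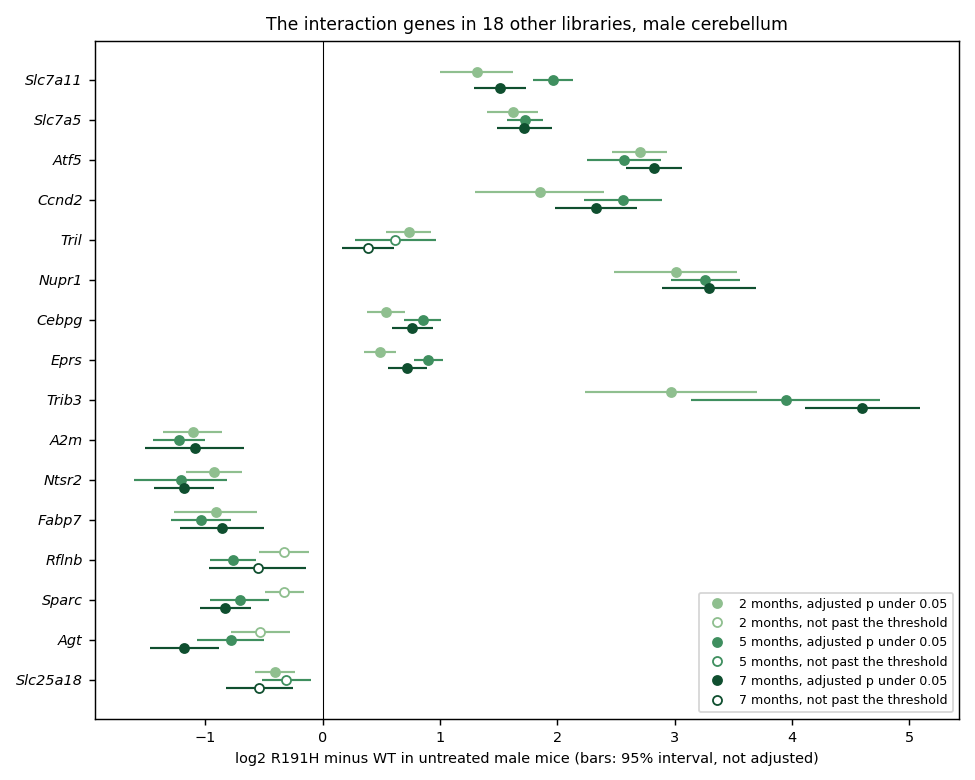
Log2 R191H minus WT (x axis) of the 16 genes in untreated male mice at 2, 5 and 7 months (n = 3 per genotype and age), with unadjusted 95% intervals. Filled points had an adjusted p under 0.05 in edgeR. All values of the first 9 genes lie above 0, up to 4.60 for Trib3 at 7 months, and all of the last 7 lie below 0.

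The reverse reading took genes from the male libraries only and looked at them in the females. Of the genes called in R191H males at all 3 ages, 28 were higher and 4 lower. Of the 28, 18 were tested in the females, and the other 10, among them Chac1, Hmox1 and Mthfd2, were not. All 18 had a higher level in R191H than in WT on placebo, with log2 effects from 0.36 to 3.29 and a median of 0.98. On 2BAct the same 18 had effects from -0.03 to 0.84 with a median of 0.11. The interaction was below 0 for all 18 with a median of -0.81, beside -0.01 for all genes tested, and 8 of the 18 passed, against the background of 0.0882%. The diet effect in WT mice had a median of -0.01 over these 18 genes.

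The 4 genes lower in males were Etnppl, A2m, Ntsr2 and Fabp7, all tested in the females. Their median R191H effect was -1.06 on placebo and -0.02 on 2BAct. All 4 had an interaction above 0, with a median of 1.06, and 3 passed (background 0.0686%). Etnppl, an astrocyte enzyme that breaks down phosphoethanolamine, had -0.94 on placebo and -0.03 on 2BAct, with an interaction of 0.91 that did not pass (adjusted p = 0.0949 in edgeR). Its diet difference in WT mice was -0.33 (unadjusted 95% interval -0.62 to -0.03, adjusted p = 0.999 in edgeR). The R191H effect of Phgdh on 2BAct was 0.28 (unadjusted 95% interval 0.09 to 0.48), 42.7% of its effect on placebo and the largest share among these 22 genes.

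**Figure D4:**
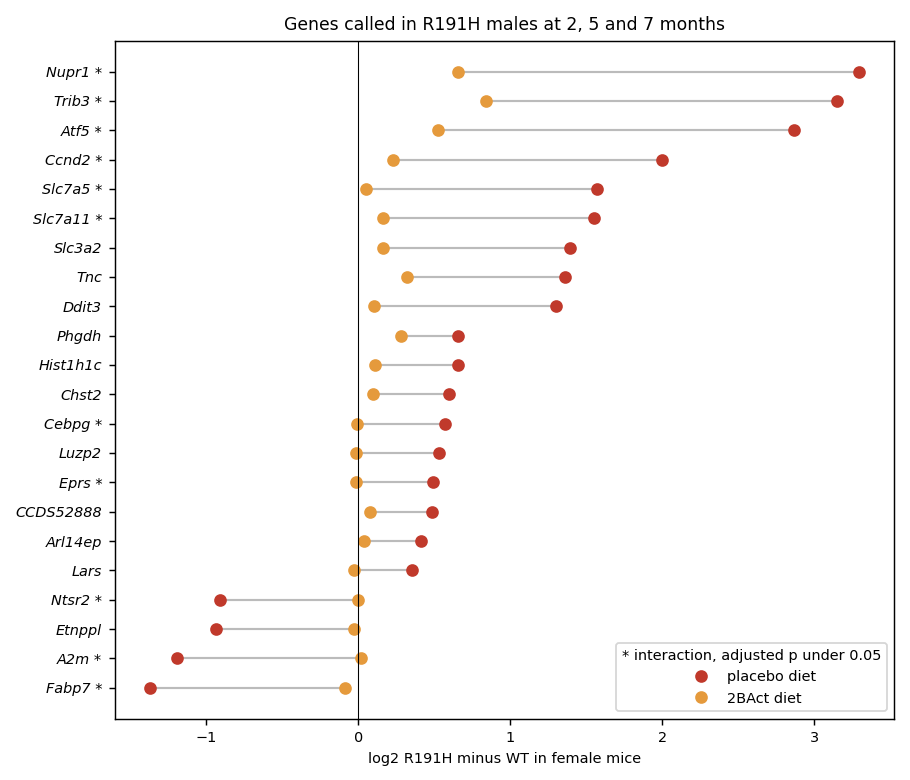
Log2 R191H minus WT in female mice (x axis) on placebo and on 2BAct for the 22 tested genes that were called in R191H males at 2, 5 and 7 months, with grey lines joining the values of a gene and asterisks on the 11 with an interaction at an adjusted p under 0.05. Each 2BAct value lies nearer to 0 than the placebo value of the same gene.

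In the larger ISR lists few genes passed, while most members were below 0. Over all genes tested 51.3% were below 0, 0.0882% passed below 0 and the median was -0.01. Of 37 tested genes of the curated ISR list in the study, 6 passed with an interaction below 0 and 0 above it, 30 were below 0, and the median was -0.22 (-0.38 without R191H + 2BAct replicate 3). With an unadjusted p under 0.05 in edgeR, 14 of the 37 were below 0 and 0 above it. R191H + placebo lay above all other libraries for 14 of them. Of 60 tested genes of the study's CLIC signature, a set of co-expressed genes, 5 passed, 44 were below 0 and the median was -0.13. With such a p 16 were below 0 and 1 above it, and R191H + placebo lay above all others for 17. Of all genes tested 2.84% were below 0 with such a p, and 1.29% had that placement. The study built that signature from the genes most raised in its RNA-seq of R191H cerebellum, so it is not independent of the series. Of 25 targets of IRE1 and ATF6, the other arms of the unfolded protein response, 0 passed in edgeR and 0 had an unadjusted p under 0.05, and the median was 0.03. Some had few unique reads over the 12 libraries, such as Pdia3 with 172 and Herpud1 with 338. A small change could not be detected for these. The ER chaperone Hspa5 had an interaction of 0.26 (95% interval -0.27 to 0.79) at 8.73 to 14.5 CPM across the 12 libraries. The transcripts of the 5 Eif2b subunits gave 0 calls and a median of 0.08.

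Markers of astrocytes and Bergmann glia did not move together. Of 11 tested, 2 passed, A2m and Fabp7, where 0.0686% of all genes passed above 0, and 7 lay above 0 and 4 below it. With an unadjusted p under 0.05 in edgeR, 6 were above 0 and 2 below it, beside 2.97% and 2.84% of all genes. The R191H + placebo libraries lay below all others for 6 and above all others for 3, beside 0.961% and 1.29% of all genes. Gja1, the main astrocyte gap junction protein, had 104 to 124 CPM in R191H + placebo and 140 to 178 elsewhere (interaction 0.46, adjusted p = 0.138 in edgeR), and the water channel Aqp4 had 402 to 499 against 518 to 690 (0.46, adjusted p = 0.322). By contrast Sox9, a glial transcription factor, had an interaction of -0.38 and Slc1a3, the glutamate transporter GLAST, of -0.21, and both had R191H + placebo above all other libraries. The summed level of the list overlapped between groups, at 2691 to 2854 CPM in R191H + placebo and 2672 to 2925 in the other groups. That sum is weighted by the members with most unique reads over the 12 libraries. These were Slc1a3 with 257134 and Aqp4 with 103474, which went opposite ways.

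Markers of mature oligodendrocytes leaned one way without a call. All 11 tested had an interaction above 0, with a median of 0.43, and 4 had an unadjusted p under 0.05. Of all genes tested 48.7% were above 0, and 2.97% were above 0 with such a p. Mal, a myelin proteolipid, had 128, 99.1 and 91.6 CPM in R191H + placebo and 129 to 234 elsewhere, with an interaction of 0.86 (adjusted p = 0.389 in edgeR). WT + placebo replicate 3 held the highest value of Mal, 234 CPM, and R191H + 2BAct replicate 2 the next, 222. The list's median was 0.18 without R191H + 2BAct replicate 2 and 0.67 without R191H + 2BAct replicate 1. Its summed level was 756 to 943 CPM in R191H + placebo, 809 to 1305 in R191H + 2BAct, 888 to 1399 in WT + placebo and 898 to 986 in WT + 2BAct, so that the groups overlapped. For markers of their precursors, 3 of which were tested, the median was 0.02. Of the 9 myelination genes of the study, 0 passed in edgeR, 7 were above 0 and the median was 0.24 (0.12 without R191H + 2BAct replicate 2).

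Genes of sterol synthesis, which supply cholesterol to myelin and are active in glia, leaned the same way. Of 16 tested, which the study chose on male libraries, 15 had an interaction above 0, 6 of them had an unadjusted p under 0.05 and 0 passed in edgeR, and the median was 0.32, beside 48.7% above 0 and 2.97% above 0 with such a p over all genes. The summed level was 647 to 704 CPM in R191H + placebo and 774 to 1016 in the other 9 libraries, without overlap. Hmgcs1, which makes the precursor of mevalonate, had 135, 125 and 117 CPM in R191H + placebo and 155 to 274 elsewhere, with an interaction of 0.64 (adjusted p = 0.484 in edgeR). Insig1, a sensor of the pathway, had 0.37 (adjusted p = 0.518). The median of the list was 0.22 without R191H + 2BAct replicate 2 and 0.46 without R191H + 2BAct replicate 1.

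Markers of other cells were placed beside these results. Of 12 granule cell markers 9 were below 0 (median -0.15), and 10 Purkinje cell and 8 interneuron markers had medians of 0.00 and 0.02, with 0 calls in edgeR for each of the 3 lists and 0 to 1 members of each at an unadjusted p under 0.05. Without R191H + 2BAct replicate 2 the granule cell median was -0.07. The 4 microglia markers tested had a median of 0.24 (0.02 without R191H + 2BAct replicate 2), the 6 of meninges and fibroblasts 0.21 (0.06 without WT + placebo replicate 3) and the 5 of endothelium 0.02. Of the red blood cell markers, 2 of 6 were tested, with a summed level of 4.27 to 7.13 CPM in R191H + placebo and 7.85 to 15.5 in the other 9 libraries. Hbb-bs, a globin chain, had an interaction of 0.99 (adjusted p = 0.401 in edgeR), and the median of the pair was 1.11 (0.58 without R191H + 2BAct replicate 3). Of the choroid plexus markers, 2 of 15 were tested, and their summed level varied from 13.5 to 792 CPM among the R191H + placebo libraries and from 189 to 1088 in the others. Their median interaction was 0.72, and 1.57 without R191H + placebo replicate 1. The part of blood or choroid plexus in the results above was not tested.

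**Figure D5:**
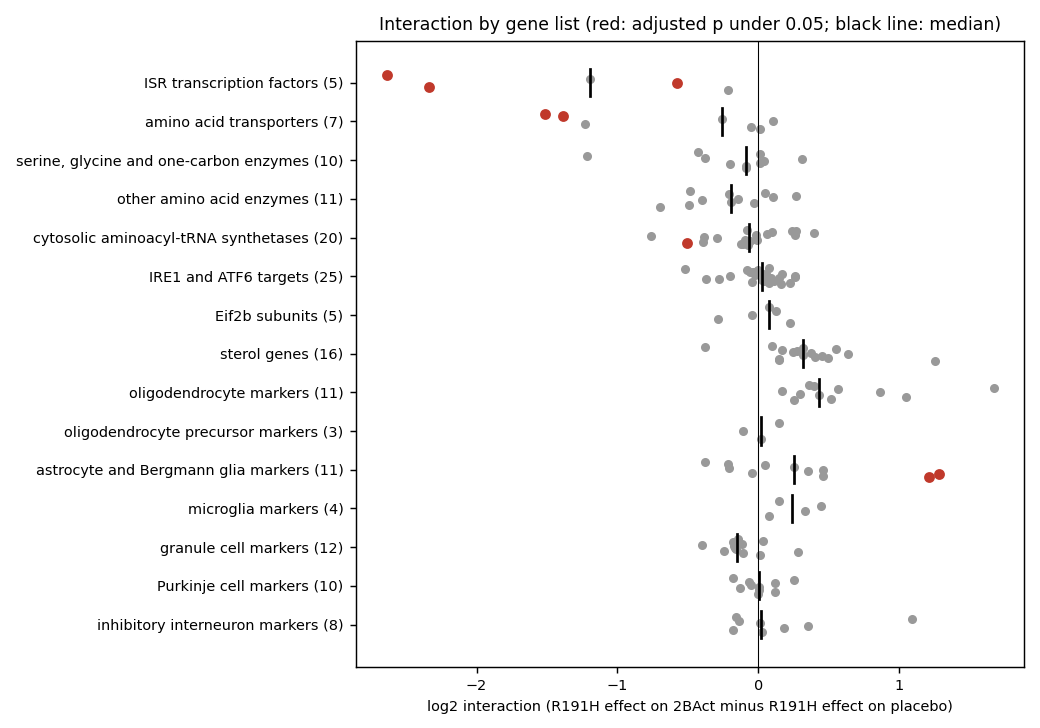
Log2 interaction (x axis) of each tested gene in 15 lists, with the number tested in brackets, a black line at the median of the list and red points for an adjusted p under 0.05 in edgeR. The red points lie among ISR transcription factors, amino acid transporters and a tRNA synthetase below 0 and among astrocyte and Bergmann glia markers above 0, while the medians of sterol genes and oligodendrocyte markers lie at 0.32 and 0.43 with no red point.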

How the data were processed

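RNA-seq of cerebellum, after removal of ribosomal RNA, covered 12 female and 18 male mice. The authors mapped the reads with STAR 2.5.3a to mm10, estimated expression with MMSEQ and collapsed genes that reads could not tell apart. The deposited counts are unique reads per gene, without normalization, and the deposited abundances are the natural log of TPM, with low genes set by the authors to 1 constant per group. The authors' own columns of effects and posterior probabilities were not used.

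Counts were tested with edgeR 4.0.16 (R 4.3.3; glmQLFit and glmQLFTest, TMM, filterByExpr at a minimum count of 10 and total of 15) in 1 fit of 4 group means, with Benjamini-Hochberg adjustment and a threshold of 0.05. Males were fitted per age. Scripts were tested on simulated data. CPM for placing libraries used a prior count of 2 on the log scale. Lists are described by counts and medians without a test. Alternatives used DESeq2 1.42.0 and limma 3.58.1. Depth was 12873718 to 18619411 unique reads per female library. In each of these libraries 86.8% to 88.2% of the genes with reads had an even count. Whether 1 fragment was counted as 2 reads was not tested, and halved counts were run as an alternative. Reads carry no molecular identifiers, so precision comes from the spread between mice.

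All genes past the interaction's threshold are named, with the tested ISR panel, Eif2b5, the 5 genes nearest outside the threshold and up to 4 members per list with the smallest p; Sox9, Slc1a3, the other transporters and the genes of the male reading were named after their values were seen. The comparison, the members and the gene lists were chosen with earlier results of these data known. Replicate numbers did not pair the samples (18 correlations of deviations between same-numbered libraries, -0.09 to 0.07). Gene coordinates are from GENCODE on GRCm38.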

Additional observations from a re-analysis of the deposited data

Results flagged for a closer look

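Each of the 16 genes of the interaction was flagged because the effect of R191H differed between the diets in a test of that difference (edgeR's quasi-likelihood test over 12 libraries). The R191H effect on 2BAct minus that on placebo was -1.39 for Slc7a11, -1.52 for Slc7a5, -2.34 for Atf5, -1.76 for Ccnd2, -0.82 for Tril, -2.64 for Nupr1, -0.58 for Cebpg, -0.51 for Eprs and -2.31 for Trib3 on the log2 scale. It was 1.21 for A2m, 0.91 for Ntsr2, 1.28 for Fabp7, 0.66 for Rflnb, 0.49 for Sparc, 0.74 for Agt and 0.58 for Slc25a18. With 3 libraries a group, genes were not flagged for a single library far from its group.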

How the results depend on the processing

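Over the alternatives run, the interaction was called for 16 to 19 genes with RLE factors, library totals, every gene with at least 1 read, limma-voom, mitochondrial and ribosomal genes left out or a robust spread, and for 15 with halved counts. With library totals 12 of 18 were below 0, against 9 of 16 with TMM, and 27 of 58 genes were lower on placebo in R191H, against 19 of 57. DESeq2 called 26 interactions, among them all 16, and 1 gene each for the R191H effect on 2BAct and the diet effect in WT. A floor of 1 TPM on the mean kept 4995 genes, with 3 interactions, 28 genes for R191H on placebo and 30 for the diet in R191H. It left 5 of the 16 genes to test, of which Agt and Sparc did not pass, and in males it left 5, 2 and 2 at 2, 5 and 7 months, of which 4, 2 and 2 were called. Deposited ln TPM gave 140, 2562, 1371, 1549 and 420 calls for the interaction, R191H on placebo, R191H on 2BAct, the diet in R191H and the diet in WT. On that scale the median of all genes moved by -0.49 for R191H on placebo and by 0.10 for the interaction, 96 of the 140 interactions were below 0, 2538 of the 2562 genes were lower, and Atf5, Nupr1, Trib3, Slc7a11 and A2m kept their interaction call while the other 11 lost it. In these libraries 3412 genes sit at the constant in R191H + placebo and 125 to 1286 in the other groups. With only the 6 libraries compared, 1 gene was called for R191H on 2BAct. By library totals 86 genes had R191H + placebo above all others.

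Leaving out 1 library gave 12 to 19 interactions and 36 to 68 genes for R191H on placebo (36 without WT + placebo replicate 2, 37 without R191H + placebo replicate 3). It gave 0 to 1 for R191H on 2BAct, 32 to 59 for the diet in R191H (32 without R191H + placebo replicate 3, 37 without R191H + 2BAct replicate 2) and 0 to 2 for the diet in WT. Ppp1r15a ranged from -0.42 to 0.10 and changed sign without WT + placebo replicate 3 (0.10) or R191H + placebo replicate 1 (0.08). Of the 16 genes, 0 changed sign in any setting, and Atf5, Nupr1, Slc7a11 and A2m passed in each in which they were tested. With a replicate block 15 interactions passed, 13 of them among the 16; Rflnb, Agt and Slc25a18 had adjusted p of 0.0505 to 0.0670 in edgeR. The numbers share only a label, so that fit is no paired design. Depth limits Trib3, Ppp1r15a and other genes of few reads.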
